A study of Drosophila melanogaster with 3 samples.

Results

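Odorant receptor (Or) and gustatory receptor (Gr) genes were examined in a map of where a GFP-tagged transcription factor, Gsb-n (gooseberry-neuro), was recovered on the Drosophila melanogaster genome. The members were the protein-coding genes whose symbol begins with Or or Gr followed by a digit, 59 odorant and 60 gustatory receptor genes, together 119 of 13945 protein-coding genes. The only group was gsb-n GFP embryo, with 3 biological replicates: whole embryos collected at 4 to 14 h from a transgenic line in which GFP is joined to the C-terminal end of gsb-n. Chromatin was sheared to 200 to 800 bp and precipitated with an anti-GFP antibody. There was no second group and no control sample among the samples used here, the sequences that drive the fusion gene were not analysed here, and whole embryos mix all tissues. A peak in a few cells and a weak peak in many cells cannot be told apart. No read counts were given, so depth is unknown, and the number of peaks in each list, 30000 in each replicate list and in the pooled list, is not a measure of enrichment.

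Odorant and gustatory receptors are membrane proteins of sensory neurons. Each olfactory neuron of the fly typically expresses a chosen odorant receptor together with the co-receptor Orco, while taste neurons express several gustatory receptors, for sugars or for bitter compounds. A pair of gustatory receptors serves carbon dioxide sensing in olfactory neurons. The adult neurons that use most of these genes form during metamorphosis, and the larval ones differentiate late in embryogenesis. Gsb-n is a Pax protein with a paired domain and a homeodomain and is known for its role in the embryonic nervous system.

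Each peak has a summit, the position of its highest signal. A peak was credited to a protein-coding gene when that gene's transcription start site (TSS) was the closest to the summit, and the part of an arm in which this holds for a gene is called its territory. The list kept at the authors' irreproducible discovery rate threshold (IDR list) holds 5746 peaks, which are also the 5746 highest of the pooled list by signal, so these lists are not independent. Signal is the deposited peak height. Each list has its own scale for it, and signals are compared below only within a list.

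The sequences below show the chromatin at which the strongest receptor-associated peaks were centred and the start regions of receptor genes that held a weaker summit. The first 4 reach 100 bases to each side of an IDR summit: the pair of peaks highest in signal among all receptor genes, the peak at Gr89a and the peak farthest from its receptor gene. They are read on the plus strand of genome release 6 (dm6) from RefSeq, at chr3R:21828890-21829090 and chr3R:21828256-21828456 for Gr93a, chr3R:16497540-16497740 for Gr89a and chr3L:10298329-10298529 for Or67d. Capitals mark matches, on either strand, to the homeodomain core TAATTA, the paired-domain cores GTCACG and GTTCC, the DRE element TATCGATA and the GAGA element GAGAG.
Gr93a, strongest peak: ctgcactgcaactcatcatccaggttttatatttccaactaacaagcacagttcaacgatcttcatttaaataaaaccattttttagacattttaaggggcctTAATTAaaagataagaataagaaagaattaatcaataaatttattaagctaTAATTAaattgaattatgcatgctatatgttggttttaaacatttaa
Gr93a, next strongest peak: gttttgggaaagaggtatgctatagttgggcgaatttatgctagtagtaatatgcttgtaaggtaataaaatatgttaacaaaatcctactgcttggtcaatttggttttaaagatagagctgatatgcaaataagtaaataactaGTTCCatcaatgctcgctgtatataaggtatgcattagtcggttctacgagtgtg
Gr89a peak: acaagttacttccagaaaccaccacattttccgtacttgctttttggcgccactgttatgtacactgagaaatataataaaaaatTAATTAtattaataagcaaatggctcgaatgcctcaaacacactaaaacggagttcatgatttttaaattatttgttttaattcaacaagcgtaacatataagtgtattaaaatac
Or67d, farthest peak: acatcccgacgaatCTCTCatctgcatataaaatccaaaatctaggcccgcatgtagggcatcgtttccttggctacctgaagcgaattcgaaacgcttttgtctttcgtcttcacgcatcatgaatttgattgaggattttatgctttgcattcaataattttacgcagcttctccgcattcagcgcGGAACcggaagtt
G and C made up 25.9%, 34.3%, 29.9% and 43.8% of these 4 windows, in the order printed, against a median of 36.3% over all IDR windows of this length. The other 2 sequences are promoters, 250 bases before to 50 after the start on the gene's own strand, chosen because a pooled summit lay inside them: Gr77a at chr3L:20739381-20739680 on the minus strand and Or65c at chr3L:6327358-6327657 on the plus strand.
Gr77a promoter: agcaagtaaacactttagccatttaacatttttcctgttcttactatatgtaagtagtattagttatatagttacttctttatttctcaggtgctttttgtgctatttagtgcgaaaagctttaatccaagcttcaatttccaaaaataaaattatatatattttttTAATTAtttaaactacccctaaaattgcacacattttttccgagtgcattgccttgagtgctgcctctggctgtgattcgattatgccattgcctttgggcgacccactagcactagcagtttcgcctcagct
Or65c promoter: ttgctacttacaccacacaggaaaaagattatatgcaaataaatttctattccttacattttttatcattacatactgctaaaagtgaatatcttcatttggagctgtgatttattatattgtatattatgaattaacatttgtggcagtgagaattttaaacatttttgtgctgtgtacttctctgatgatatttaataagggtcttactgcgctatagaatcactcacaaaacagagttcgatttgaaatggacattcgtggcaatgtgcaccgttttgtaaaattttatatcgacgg
The Gr77a promoter held a homeodomain core, and the Or65c promoter held none of the 5 marked elements.

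Few receptor genes lay nearest to a peak of the tagged protein. In the IDR list 7 of the 119 receptor genes (5.88%, Wilson 95% interval 2.88% to 11.6%, counting error only) were nearest to at least 1 peak, against 22.6% of all protein-coding genes. The 7 were the gustatory receptor genes Gr89a, Gr93a, Gr93b and Gr93d and the odorant receptor genes Or56a, Or67d and Or98a. They took 12 of the 5746 IDR peaks. In the pooled list 27 receptor genes (22.7%) had a peak, against 45.9% of all genes, and they took 142 of 30000 peaks.

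The 3 replicates gave the same order in their own lists. Replicate 1 had 30 receptor genes with a peak (25.2%), against 49.6% of all genes. Replicate 2 also had 30 (25.2%), against 48.3%, and replicate 3 had 32 (26.9%), against 55.2%. The receptor share was 25.8% ± 0.970 and the share of all genes 51.0% ± 3.65 (SD, n = 3), so the highest receptor share lay below the lowest share of all genes. Among the 5746 strongest peaks of each replicate, receptor genes with a peak numbered 9 in replicate 1, against 23.3% of all genes, 9 in replicate 2, against 22.7%, and 10 in replicate 3, against 24.5%. As a share of receptor genes this was 7.84% ± 0.485 (SD, n = 3). No test was made on these differences, because the receptor genes were chosen with earlier results of these data known.

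**Figure D1:**
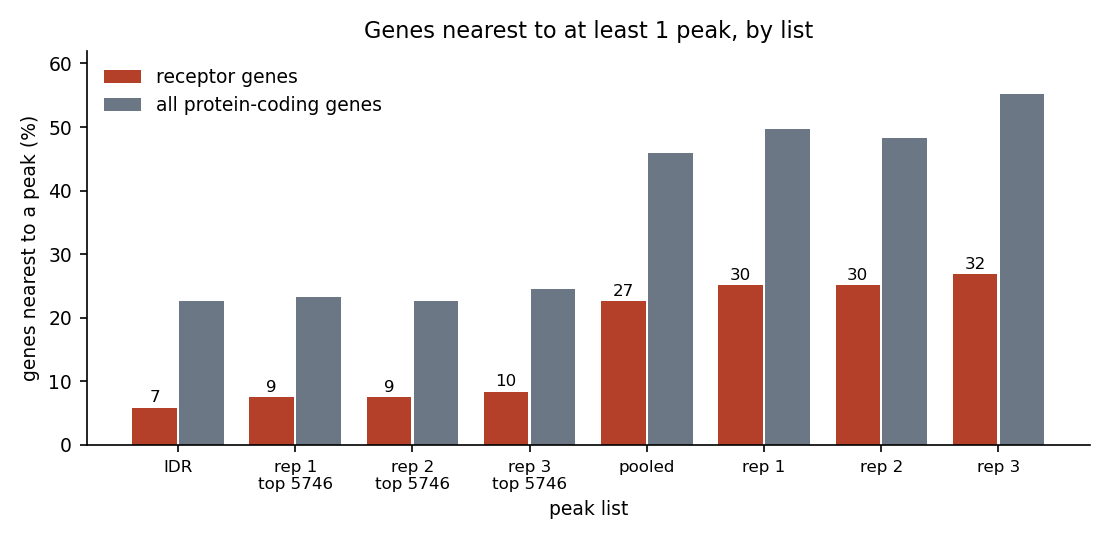
Share of genes (%, y axis) nearest to at least 1 peak in each peak list (x axis), for the 119 receptor genes (red, with the number of genes above each bar) and all 13945 protein-coding genes (grey). The receptor share lay below the share of all genes in the IDR list, the pooled list, the 3 replicate lists and their 5746 strongest peaks.

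Gene by gene the replicates overlapped in part. Of the 119 receptor genes, 75 had no peak in any replicate list (63.0%, against 35.4% of all genes). A peak in 1 list was found for 15 (12.6% against 14.3%), in 2 lists for 10 (8.40% against 11.9%) and in all 3 for 19. The 19 were 16.0% of the receptor genes, against 38.3% of all genes with a peak in all 3 lists. Most receptor genes with a peak in some list did not have one in every list, while most of all genes with a peak did. Within the strongest 5746 peaks, 106 receptor genes (89.1%, against 68.9% of all genes) had no peak in any replicate and 7 (5.88%, against 16.8%) had one in all 3. These 7 were the same genes that carried IDR peaks. A further 5 (4.20%, against 8.66% of all genes), Gr32a, Or33c, Or49a, Or65c and Or67c, had a strong peak in 1 replicate. Or45b (0.840%, against 5.60%) had one in 2, at different sites. Its strong peak matched the pooled summit 2868 bp upstream in replicate 1 and the one 5158 bp upstream in replicate 3. Gr32a, a bitter taste and pheromone receptor gene, had its strong peak, of signal 63.4, in replicate 3. No peak was assigned to it in replicates 1 and 2, although a replicate 1 summit assigned to another gene lay 787 bp from its start.

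Receptor genes had somewhat shorter territories than other genes, with a median of 3805 bp against 4327 bp for all genes. Per Mb of territory, receptor genes had 12.1 IDR peaks against 42.9 over all genes, and 144 pooled peaks against 224. Without Or67d, left out after the data were seen, they had 10.9 and 102. Within quartiles of territory length the receptor share stayed below that of the other genes. In the shortest quartile none of 28 receptor genes had an IDR peak, against 10.8% of other genes. The next quartile had 1 of 37 (2.70% against 16.0%) and the third had 2 of 24 (8.33% against 21.3%). In the quartile of longest territories 4 of 30 had an IDR peak, 13.3% against 42.9%. The pooled list gave 7.14%, 13.5%, 25.0% and 46.7% of receptor genes in the 4 quartiles, from shortest to longest. The other genes gave 23.6%, 35.8%, 49.7% and 75.2%. In the longest quartile the replicate lists gave 51.1% ± 1.92 of receptor genes against 79.2% ± 3.01 of other genes (SD, n = 3).

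**Figure D2:**
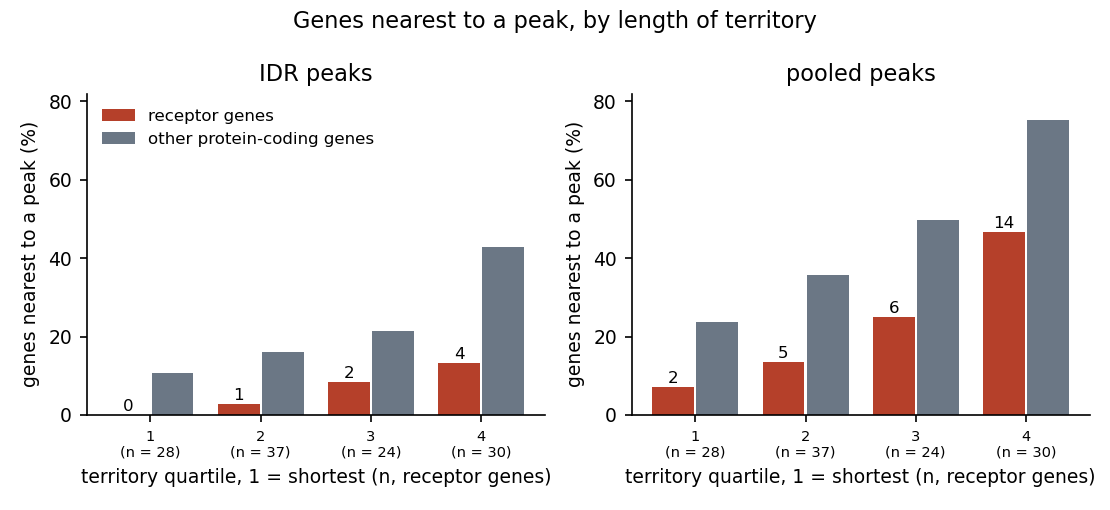
Share of genes (%, y axis) nearest to an IDR peak (left) or a pooled peak (right) in each quartile of territory length (x axis, 1 is the shortest), for receptor genes (red, with the number of genes called above each bar) and other protein-coding genes (grey). Both shares rose with territory, and the receptor share was the lower in each quartile, with 4 of 30 receptor genes called in the longest quartile of the IDR list.

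No receptor gene had an IDR summit at its start. Of the 119 genes, 0 had an IDR summit within 500 bp of any of their TSSs, against 17.7% of all genes (a count of 0 allows a share of up to 2.52%, counting error only). The pooled list had a summit within 500 bp of the TSS of 8 receptor genes (6.72%), against 36.8% of all genes. For 82 of the 119 genes, annotated without a 5′ leader, the listed TSS was the start codon. Other genes without a leader were scored at the TSS only in subsets whose promoter held a given sequence element. Of these subsets, 0% to 1.75% had an IDR summit within 500 bp, and 0% to 10.5% a pooled one. The median receptor TSS was 21148 bp from the nearest IDR summit, whatever gene that summit was assigned to, against 8039 bp over all genes. Or88a was the closest at 626 bp and Or35a the farthest at 122239 bp. To the nearest pooled summit the median was 7191 bp against 2038 bp.

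**Figure D3:**
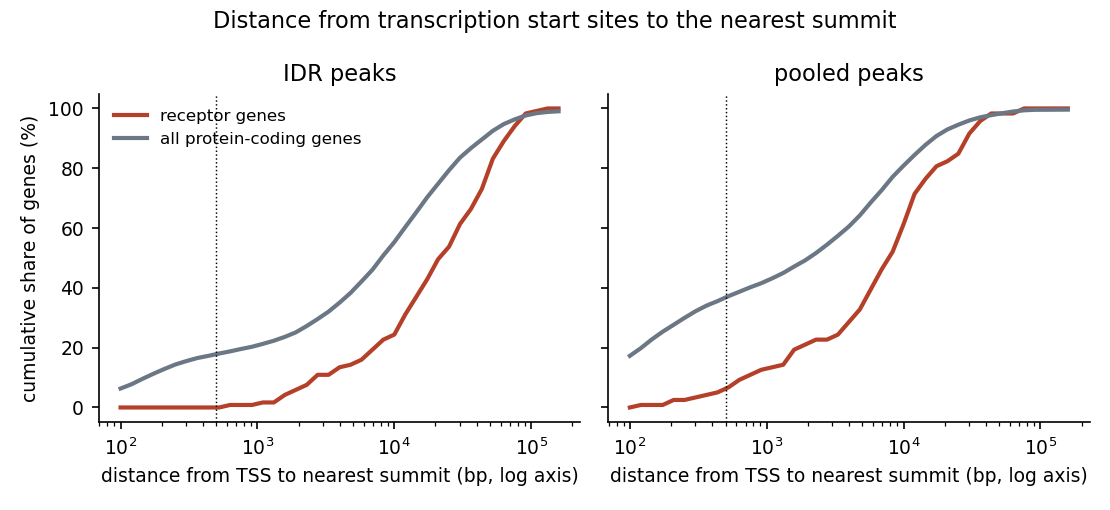
Cumulative share of genes (%, y axis) by distance from the TSS to the nearest IDR summit (left) or pooled summit (right) in bp (x axis, log scale), for receptor genes (red) and all protein-coding genes (grey); the dotted line marks 500 bp. At that line the receptor curve stands at 0 for IDR peaks and 6.72% for pooled peaks, against 17.7% and 36.8% of all genes. For 82 of the 119 receptor genes the listed TSS is the start codon.

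Where an IDR summit did lie near a receptor gene, it was more often assigned to another gene than to the receptor gene itself. An IDR summit lay within 5 kb of 17 receptor TSSs (14.3%, against 39.2% over all genes). For 6 of the 17 that summit was assigned to the receptor gene itself, and for 11 it was assigned to another gene. In 9 of these 11 the summit was within 500 bp of the other gene's TSS. For Gr93c the other gene was the receptor gene Gr93d. Of all IDR peaks 35.3% lay within 500 bp of a TSS, and the same split was not made over all genes. The summit 626 bp from Or88a was 498 bp from CG12402, the one 1003 bp from Or9a was 57 bp from Neb-cGP, and the one 1659 bp from Gr97a was 9 bp from Tsp97E. The summit 2448 bp from Gr94a lay 55 bp from p53, the fly homologue of the tumour suppressor. Gr5a, a sugar receptor gene that responds to trehalose, had a summit at 1445 bp, in an intron of its neighbour Tre1, and none was assigned to Gr5a. Gr63a, which encodes a subunit of the carbon dioxide receptor, had an IDR summit at 2528 bp, 25 bp from the start of Ccz1.

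The genes on either side of receptor genes were examined in the same way. Taken in order of their starts, the 119 receptor genes formed 87 runs uninterrupted by another protein-coding gene, 17 of them of 2 or more genes. Their 171 flanking genes had an IDR peak in 29 cases (17.0%, against 22.6% of all genes) and a pooled peak in 77 (45.0%, against 45.9%). Receptor genes in runs of 2 or more had an IDR peak in 3 of 49 cases (6.12%), and those standing alone in 4 of 70 (5.71%). The largest run, the 6 sugar receptor genes Gr64a to Gr64f, had no pooled peak. Some of its members share a start position, as do Or10a and Gr10a, and a peak nearest to a shared start would have counted for each gene. The 5 genes Gr22a to Gr22e also had no pooled peak. Of 21 receptor genes that lie wholly inside another protein-coding gene, 1 had an IDR peak (4.76%). One of the 21 is Or85a, inside the Pax gene Poxm: Or85a had no peak in any list, while Poxm had 1 IDR peak, of signal 557.

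Of the 12 IDR peaks, 7 lay around 4 gustatory receptor genes on chromosome arm 3R. Gr93a, which is needed for the taste of caffeine, spans chr3R:21832503-21834013 on the plus strand, and Gr93b, Gr93c and Gr93d follow on the minus strand. The strongest receptor peak lay 3513 bp upstream of Gr93a, at chr3R:21828856-21829165. Its signal was 851 in the pooled list and 342, 347 and 171 in replicates 1, 2 and 3. It ranked 263 in the pooled list and 240, 275 and 335 in the replicate lists, a mean of 283 ± 48.0 (SD, n = 3). The next strongest lay 4147 bp upstream of Gr93a, with a pooled signal of 484 and replicate signals of 193, 202 and 88.5. It ranked 873, 903 and 1497 in the replicates, so replicate 3 placed it lowest. In replicates 1 and 2 this pair stood above the other peaks nearest to Gr93a, while in replicate 3 a peak downstream of the gene, at 92.4, stood above the 88.5 of the second.

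Gr93a also had IDR peaks 1954 bp downstream of its start, beyond its end, with a signal of 310.0, and 1976 bp upstream, with a signal of 209. Gr93d had peaks 3621 bp and 2436 bp upstream, with signals of 331 and 274. The replicates gave 140.4, 129 and 90.0 for the former and 127, 96.6 and 58.4 for the latter. Gr93b had a peak 3927 bp downstream, with a pooled signal of 173. Its replicate ranks of 5355, 4115 and 15937 were the most uneven of the 12 peaks, with replicate 3 far below the others. No IDR peak was assigned to Gr93c, whose start was 3830 bp from the nearest IDR summit.

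The stretch from the start of CASK to the start of glec, 33.6 kb with the Gr93 genes between them, held 8 IDR peaks, or 0.238 per kb against 0.0429 per kb over all arms. The eighth was nearest to CASK. The stretch was chosen after the peaks were seen, so a density above that of all arms was built into the choice. The pooled list had 37 peaks there, and the replicates had 35, 38 and 32. Both flanking genes had peaks of their own, with 1 IDR peak assigned to CASK and 2 to glec. Without the 4 Gr93 genes, a comparison added after the data were seen, 4 receptor genes kept an IDR peak and the density over receptor territory was 5.19 IDR peaks per Mb.

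**Figure D4:**
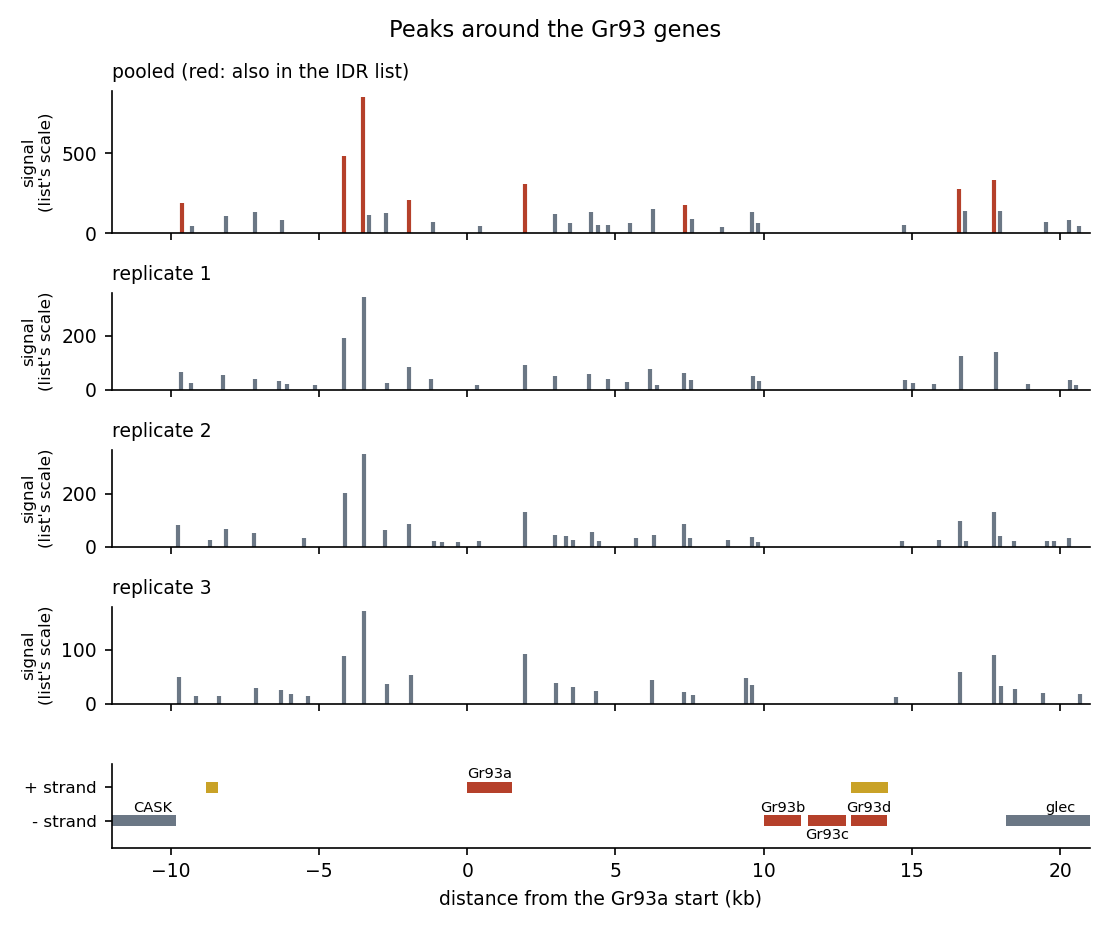
Summit positions (x axis, kb from the Gr93a start) and peak signal (y axis, each list's own scale) in the pooled list and replicates 1, 2 and 3, with genes by strand below (red, Gr93 genes; grey, CASK and glec; yellow, non-coding genes). Red lines in the pooled panel are IDR peaks, 8 in all. The peak 3513 bp upstream of Gr93a, with a pooled signal of 851, is the tallest in each panel.

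The remaining IDR peaks were spread over 4 loci. Gr89a belongs to the gustatory receptors expressed in most bitter-sensing taste neurons. Its peak, 1319 bp downstream of its start and beyond its end, had a pooled signal of 378 and replicate signals of 121, 172 and 90.0. The start of the cadherin gene Cad89D was the next nearest, at 2218 bp. Or56a, the receptor for the microbial odour geosmin, had a peak 2397 bp downstream on arm 2R with a signal of 267. The replicates gave it 85.8, 114 and 62.9, and the next nearest gene, the odorant-binding protein gene Obp56g, started 15207 bp away.

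Or67d, the receptor for the male pheromone cis-vaccenyl acetate, had a pair of IDR peaks and 49 pooled peaks, the most of any receptor gene, in a territory of 72854 bp. One IDR peak lay 4559 bp downstream, with a signal of 185, and the other 25225 bp downstream inside a non-coding gene, lncRNA:CR46003, with a signal of 214. The replicate ranks were 6893, 3714 and 5003 for the nearer and 3175, 4578 and 6904 for the farther, so each fell outside the top 5746 in 1 replicate. Or98a had a peak 20125 bp upstream of its start, with a signal of 203, in an intron of CG34353. Each of the 12 IDR peaks was matched, at a summit distance of at most 100 bp, in all 3 full replicate lists. So were 5135 of all 5746 IDR peaks, a list itself kept for reproducibility. Of the 12, 9 were among the top 5746 peaks of each replicate.

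**Figure D5:**
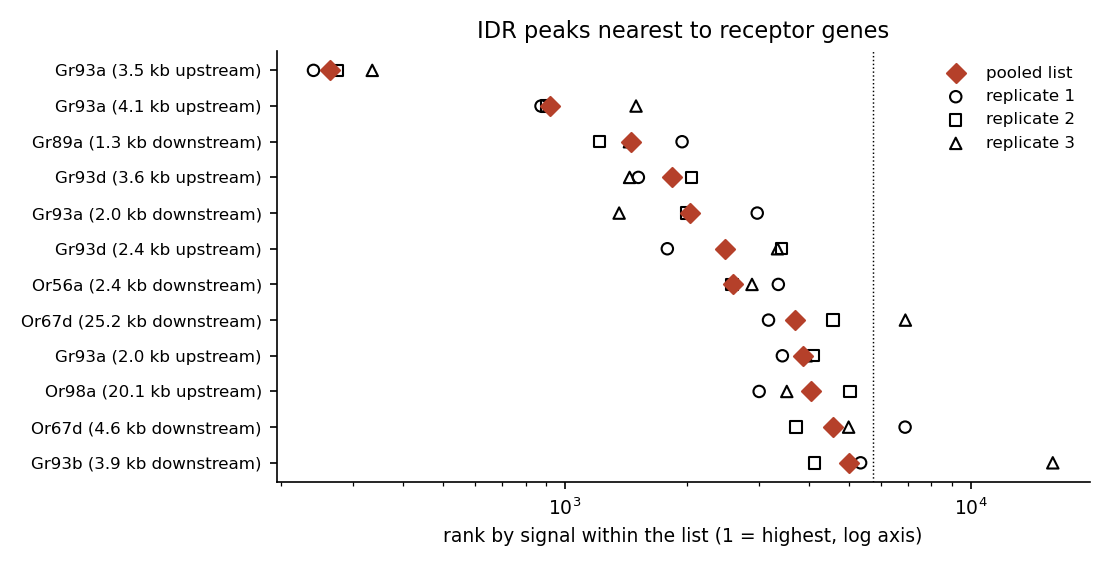
Rank by signal (x axis, log scale, 1 is the highest) of the 12 IDR peaks nearest to receptor genes (y axis, with the distance and side of the TSS) in the pooled list (red diamonds) and in replicates 1 (circles), 2 (squares) and 3 (triangles). The dotted line marks rank 5746. The Gr93a peak 3513 bp upstream lay between ranks 240 and 335 in every list, and the Gr93b peak ranged from 4115 to 15937.

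The positions of these peaks differed from those of the list they came from. Summits of the 12 IDR peaks lay a median of 3567 bp from the TSS, against 1561 bp for all IDR peaks, and 0 of 12 lay within 500 bp, against 35.3%. Intergenic summits, here those outside protein-coding genes, made up 11 of the 12 (91.7%, against 43.7% of all IDR peaks), while 1 was intronic and 0 lay in an exon. Of the 142 pooled peaks at receptor genes 80.3% were intergenic, against 39.5%, and 37.3% lay more than 10 kb from the TSS, against 20.7%. The share beyond 10 kb rested on Or67d: without that gene it was 12.9%, below that of all peaks, and the intergenic share was 69.9%. Without Or67d and the Gr93 genes 60.3% of the pooled peaks and 2 of the 3 remaining IDR peaks were intergenic. These values without loci were computed after the data were seen. Their height was less distinct: the median signal was 271 at receptor genes and 250.3 overall in the IDR list, and 69.5 and 74.0 in the pooled list.

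Weaker peaks marked 20 further receptor genes, among the 27 with a pooled peak (22.7%, against 45.9% of all genes). The 10 with the highest pooled signal were Or67c (152), Or65a (139), Or47b (134), Or65c (131), Or45b (115), Gr98d (113), Or49a (100.1), Or71a (95.4), Gr39b (79.8) and Gr63a (75.0). The Or67c peak, 1993 bp upstream, was found in all 3 replicates with signals of 47.8, 50.4 and 50.9 and ranks of 7688, 9001 and 4268. Or47b, a receptor for fatty-acid-derived fly odours that promote courtship, had a peak 1382 bp upstream with signals of 41.1, 61.3 and 36.2, and the start of sha lay 1620 bp from the same summit. Or65a, reported to respond to cis-vaccenyl acetate, had a peak 8355 bp upstream with signals of 39.0, 58.3 and 38.6. The Or45b peak, 5158 bp upstream, was also in all 3 lists, at 26.9, 41.2 and 43.6. The peak of Or49a was found in replicate 2 alone, with a signal of 69.4, and the Gr63a peak of this group also in replicate 2 alone, with a signal of 36.5.

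The 8 receptor genes with a pooled summit within 500 bp of the TSS each had such a summit assigned to them, and these peaks were weak. Their pooled signals ran from 47.2 at Gr93a, 441 bp from the start, to 70.4 at Or67c, at 323 bp, all below the list's median of 74.0. None of these 8 assigned peaks was found in all 3 replicates. Of all 30000 pooled peaks, of any signal, 10447 were found in all 3. Gr63a had a further summit within 500 bp, at 292 bp, which lay 5 bp from the start of its neighbour Lamtor4 and was assigned to that gene. It had a pooled signal of 81.4 and was found in all 3 replicates, with signals of 22.5, 40.8 and 23.4. The Or65c summit, 101 bp upstream and inside the promoter printed above, was found in replicates 1 and 3 with signals of 25.4 and 14.0. The Gr77a summit, 189 bp upstream and also inside the printed promoter, was found in replicate 1 alone, with a signal of 24.3. Or65b had its summit 378 bp downstream, in replicates 2 and 3, and the assigned summits of Or56a, Gr63a and Or85f were each found in a single replicate.

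Several well-studied receptor genes had no pooled peak. Or22a, a receptor for fruit esters, had a peak in replicate 3 alone, with a signal of 18.1, and Or42b likewise, with a signal of 14.9. Gr21a, the partner of Gr63a in sensing carbon dioxide, had a peak in replicate 2 alone, with a signal of 36.9. Gr28b, which takes part in warmth sensing, had a peak in replicate 1 alone, with a signal of 22.1. Gr5a, the fructose receptor gene Gr43a, the sugar receptor gene Gr64a and the bitter receptor genes Gr33a and Gr66a had no peak in any list. The nearest pooled summits to Gr5a and Gr66a were 758 bp and 7040 bp away.

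Odorant and gustatory receptor genes were called at similar rates in the IDR list, 3 of 59 (5.08%) and 4 of 60 (6.67%). In the replicate lists 31.1% ± 1.96 of odorant and 20.6% ± 1.92 of gustatory receptor genes had a peak (SD, n = 3). Odorant receptor genes had the longer territories, a median of 5106 bp against 3335 bp. Their order turned with the measure: gustatory receptor genes had 24.0 IDR peaks per Mb against 6.07, and odorant receptor genes had 158 pooled peaks per Mb against 114. Each order turned when a single locus was left out of the family that held it. Without the Gr93 genes the gustatory receptor genes had 3.23 IDR peaks per Mb, and without Or67d the odorant receptor genes had 93.8 pooled peaks per Mb. With both loci left out, the IDR rates were close, 3.41 per Mb for odorant and 3.23 for gustatory receptor genes. The pooled rate was then again higher for odorant receptor genes, 93.8 per Mb against 42.1. Arm 3R carried 9 of the 12 IDR peaks, at 5 of its 28 receptor genes (17.9%, against 22.3% of all genes on the arm). Arm 2L had 0 of 27 and arm X 0 of 14, against 23.3% and 23.0% of all their genes.

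Many receptor genes are annotated without a 5′ leader, so that their listed start is the start codon and the true TSS lies at an unknown distance upstream. This was so for 82 of the 119 receptor genes (68.9%), against 3.52% of all genes. An IDR peak was nearest to 6 of these 82 (7.32%) and to 1 of the 37 receptor genes with a leader (2.70%). Among other genes, 9.54% of the 409 without a leader and 23.1% of the 13417 with one had an IDR peak. In the pooled list 25 of the 82 receptor genes without a leader had a peak (30.5%), close to 31.3% of other such genes. With a leader it was 2 of 37 (5.41%), against 46.5% of other genes. The lower pooled share of receptor genes thus lay in those with a leader. How far the missing leaders bear on the low receptor share or on the TSS distances was not tested.

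Receptor promoters held the homeodomain core more often than promoters at large, a description made without a test. The letters TAATTA, searched on both strands of the 300-base promoters, were found in 61 of 119 receptor promoters (51.3%), against 20.4% of all promoters. The share was 58.3% for gustatory and 44.1% for odorant receptor genes. It was 35.1% for receptor genes with an annotated leader and 58.5% for those without, against 19.9% and 27.9% of other genes. Median G and C content was 39.7% in receptor promoters and 38.0% in all promoters. As no receptor gene had an IDR summit within 500 bp of its TSS, none of these 61 could have one. A pooled summit lay there for 2 of the 61 (3.28%), against 6.72% of all receptor genes. Among all 2850 genes with the letters in the promoter, 19.9% had an IDR summit there and 37.5% a pooled one. The shares of all protein-coding genes were 17.7% and 36.8%.

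Across the 119 receptor genes, the other elements gave smaller differences in percentage points. The TATA box letters TATAAA, on the gene's strand, were found in 44.5% of receptor promoters against 32.1% of all. The families lay on opposite sides of all promoters, with TATAAA in 67.8% of odorant and 21.7% of gustatory receptor promoters. The initiator letters TCAGT were found in 37.8% of receptor promoters against 36.1% of all. By family the TCAGT share was 28.8% for odorant and 46.7% for gustatory receptor genes, again on opposite sides. The paired-domain core GTTCC was found in 40.3% against 30.7%, GTCACG in 4.20% against 5.61% and GAGAG in 23.5% against 29.7%. The DRE letters TATCGATA, typical of promoters of broadly expressed genes, were in 0.840% of receptor promoters against 9.36%. None of these letter strings contains another. In windows reaching 100 bases to each side of IDR summits, 4 of the 12 receptor windows held TAATTA (33.3%, against 17.3% of all windows) and 4 held GTTCC (33.3%, against 19.6%), while 0 held GTCACG. A match is a description of the letters, not of binding.

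Other chemosensory gene families gave shares on both sides of the 5.88% of receptor genes, beside 22.6% of all genes. Ionotropic receptors, a separate family of chemosensory receptors, had an IDR peak at 2 of 60 genes (3.33%), and pickpocket sodium channel genes at 2 of 29 (6.90%). Odorant-binding protein genes had one at 8 of 52 (15.4%), CheA and CheB genes at 5 of 20 (25.0%) and cuticle protein genes, a further large family of short genes, at 8 of 70 (11.4%). Orco, the co-receptor of the odorant receptors, had no IDR peak and a pooled peak of signal 119. Of 15 regulators of chemosensory organs and neurons 9 had an IDR peak (60.0%): salm with 6, ct with 4, Fer1 with 3, dac, pros and Poxn with 2 each, and lz, salr and Xbp1 with 1 each. Poxn, the Pax gene that specifies chemosensory bristles, had a top signal of 206, and salm one of 754. The POU gene acj6 and pdm3, which act on odorant receptor choice, had no IDR peak, and neither had ato, amos, onecut and rn. The regulators' territories were long, with a median of 18053 bp. Per Mb of territory they had 48.6 IDR peaks, near the 42.9 over all genes.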

How the data were processed

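Chromatin immunoprecipitation sequencing was analysed from 5 peak lists deposited for 3 biological replicates of 1 group. Per the deposited notes, the pooled list was made from the alignments of the replicates with a control. The aligner, caller, depth and IDR threshold were not given in the sources used here. In the deposited lists the signal column is the authors' peak height, the authors' −log10 q column was not used in any result, and the summit offset gives each summit; p-values were absent from their column. The 5746 IDR peaks are the 5746 highest of the pooled list.

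Summits on 6 arms were assigned to the nearest TSS of protein-coding genes (Ensembl release 115, same assembly as the deposited coordinates), with shared starts credited to each gene. One pseudogene matching the name rule was left out. Promoters and windows were read from the RefSeq copy of genome release 6. Receptor shares were set beside those of all protein-coding genes, without tests. The receptor genes and lists were chosen with earlier results of these data known. Named genes were those with an IDR peak, the 10 highest in the pooled list among the rest, those with a pooled summit within 500 bp, well-studied receptors taken whatever their values, neighbours and the short lists. Genes near an IDR summit within 5 kb, strong-peak genes of single replicates and the largest runs were named after their values were seen. Assignment was tested on simulated data with planted summits. Alternatives covered the TSS definition, assignment distance, peak strength, replicates and receptor subsets. Python 3.11.15, numpy 2.4.6, pandas 2.3.3 and scipy 1.17.1 were used.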

Additional observations from a re-analysis of the deposited data

How the results depend on the processing

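Depth is unknown, no control sample was used here, and assignment rests on the nearest TSS. Of 85 alternative values, 57 stayed within 1.5 times the reported count or within its 95% interval, and 28 moved. Counting only peaks within 1000 bp of the TSS left 0 receptor genes with an IDR peak (15.6% of all genes), 12 with a pooled peak (35.8%), a mean of 12 in the replicate lists and 0.667 in their top peaks, and a median signal percentile of 26.2 in the pooled list (46.1 as reported). Keeping the upper 50% of the peaks by signal gave 4 receptor genes with an IDR peak (14.4% of all genes). It left 17 with a pooled peak (36.2% of all genes), and means of 17 and 3.67 in the replicates and their top peaks. The same setting gave 61.8 pooled peaks per Mb (112 over all genes) and a median percentile of 71.4. It left 0% of pooled peaks within 500 bp of a receptor TSS (27.8% over all genes). Assignment to the nearest TSS of any gene, transposable elements left out, gave 106 pooled peaks per Mb.

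Requiring a summit in the other replicates left 7 receptor genes with an IDR peak whichever replicate was set aside (21.5% to 21.7% of all genes). This count, like the IDR peaks per Mb, was fixed by the match of all 12 peaks in all 3 replicate lists. The same rule gave 13 to 16 receptor genes with a pooled peak (34.0% to 35.0% of all genes), 45.6 to 61.8 pooled peaks per Mb (95.4 to 108 over all genes), median percentiles of 66.1 to 72.7 and 0 to 2.22% of pooled peaks within 500 bp; the mean over the replicates' own lists was 30 to 31 genes and over their top peaks 9 to 9.5, and IDR peaks per Mb were 12.1. Receptor genes with a pooled peak found in all 3 replicates numbered 12 (10.1%, against 30.7% of all genes). They numbered 14 or 15 with summits matched within 250 bp or by overlapping intervals, settings not computed over all genes. Leaving out Gr93a, Gr93b, Gr93c and Gr93d, leaving out Or67d and crediting a shared start to the first gene ID were chosen after seeing the data. Without the Gr93 genes there were 4 genes with an IDR peak and 5.19 IDR peaks per Mb, and without Or67d 102 pooled peaks per Mb. No paired analysis was possible because the design has a single group.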
